A study of Mus musculus with 28 samples.

Results

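The NR4A orphan nuclear receptors are Nr4a1 (also called NGFI-B), Nr4a2 (Nurr1) and Nr4a3 (Nor-1). They were taken by gene symbol, so that the group holds 3 of the 32594 genes counted. Their RNA was measured in whole pituitary glands of 28 C57BL/6J mice, labelled 8 weeks old, which the methods give as the age on arrival, and all 3 genes passed the filter on low counts in every fit. In each sex, home cage control mice had neither treatment, restraint mice were held in a restrainer for 20 min and killed 10 min later, and PSD mice had 12 h of paradoxical sleep deprivation that ended 18 h before death. PSD + restraint mice had both. Groups held 4 mice per treatment in females. In males they held 4 control, 2 restraint, 3 PSD and 3 PSD + restraint mice. Mice of every group had been habituated to the deprivation tank, and cage mates shared a tank during PSD, so the tank and the treatment cannot be told apart. Mice were of 1 inbred strain.

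NR4A receptors are transcription factors of the nuclear receptor family that act without a known hormone. Their activity depends in part on their amount in a cell. Their genes are immediate early genes, transcribed within minutes of a rise in cAMP or calcium with no need for new protein. In the corticotropes of the anterior pituitary, corticotropin-releasing factor raises cAMP through its receptor Crhr1, and NR4A proteins bind the promoter of Pomc, which encodes the precursor of ACTH. Nr4a1 and Nr4a2 can also pair with the retinoid X receptors, whereas Nr4a3 is not known to do so.

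Nr4a1 lies at chr15:101254269-101274795 on the plus strand, Nr4a2 at chr2:57106830-57124003 on the minus strand and Nr4a3 at chr4:48045153-48086447 on the plus strand (GENCODE genes, GRCm38). No other annotated gene overlaps them. The stretches before their RefSeq start sites are shown because the members moved together and the CRE core TGACG, to which factors of the CREB family bind, occurs repeatedly there. Capitals mark TGACG on either strand, where CGTCA is the same core read on the other strand. The sequences are from RefSeq (GRCm38.p6) and are written along the gene's own strand. The Nr4a1 stretch, chr15:101266596-101266845, lies before the start of the RefSeq transcript and inside the span of longer GENCODE models, outside their exons. The Nr4a2 stretch is chr2:57124004-57124253 on the minus strand. For Nr4a3 only short pieces around the cores are given, since other transcripts start inside the window. They are chr4:48045067-48045087, chr4:48045088-48045110 and chr4:48045149-48045171, and the core of the last lies inside the GENCODE gene, whose start is upstream of the RefSeq one.
Nr4a1: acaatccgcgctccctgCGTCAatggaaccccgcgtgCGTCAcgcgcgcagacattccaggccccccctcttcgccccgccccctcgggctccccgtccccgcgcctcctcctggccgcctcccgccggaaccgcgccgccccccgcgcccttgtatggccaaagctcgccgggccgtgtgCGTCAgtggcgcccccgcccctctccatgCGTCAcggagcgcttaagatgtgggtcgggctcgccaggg
Nr4a2: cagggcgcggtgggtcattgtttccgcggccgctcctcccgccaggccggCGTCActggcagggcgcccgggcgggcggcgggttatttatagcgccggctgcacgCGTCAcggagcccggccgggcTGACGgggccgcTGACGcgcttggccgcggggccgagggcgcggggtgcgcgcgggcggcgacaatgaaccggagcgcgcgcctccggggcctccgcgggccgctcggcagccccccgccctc
Nr4a3, distal piece: aggagggTGACGtagcgtccc
Nr4a3, middle piece: atgtCGTCAcatTGACGtctcgc
Nr4a3, proximal piece: tggcataaaTGACGtgccgagag

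Each of the 3 windows held 4 cores. Of 27025 mouse genes with a window of this length, 19.8% held at least 1 core and 0.163%, or 44 genes, held at least 4. The palindrome TGACGTCA, a full CRE, stood in none of the 3 windows and in 1.77% of all genes. AAAGGTCA, the NBRE to which an NR4A monomer binds, was likewise in none of them, nor in the Pomc window, and in 1.55% of all genes. Only these exact letters were searched on either strand, in windows of this length. Other NR4A sites, near matches and sites farther upstream were not looked for, so Pomc may hold NR4A sites that this search misses. Of the 12556 tested genes with a window, 0.852% were higher after restraint in all mice, as described further on. Among the 37 genes with at least 4 cores that were not NR4A genes, 3 were higher (8.11%), namely Coq10b, Pop4 and Trp53inp2, which were picked out after their values were seen. The share was 1.47% of the 3467 genes with 1 to 3 cores and 0.553% of the 9049 genes with none. The limit of 4 cores equals the members' own count, and the share above it rests on 3 genes. The base composition of the windows was not compared between these classes. These letters and shares are a description of the windows and not a test of binding or of what raised the genes.

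The libraries held 14024465 to 52948531 counts (median 33389717). Defining markers of corticotropes (Pomc, Tbx19, Crhr1, Avpr1b), melanotropes, somatotropes, lactotropes, gonadotropes and thyrotropes were detected in every mouse, as a whole pituitary would give. Some libraries need naming before the results. In control male 1 the summed level of the posterior lobe pituicyte markers was 5.35 CPM against 78.0 to 101 in the other control males, and that of the melanotrope markers was 377 CPM against 1347 to 1726. Its summed forebrain neuron markers stood at 93.3 CPM against 34.3 to 42.0, and its corticotrope markers at 11514 CPM against 49730 to 63673. The corticotrope sum was nearly all Pomc, which melanotropes also express, so it does not show by itself that corticotropes were few. In PSD male 3 all NR4A genes stood above those of the other unrestrained males. The male results that these mice change most are given with and without them. Summed forebrain neuron markers also stood apart in PSD female 1 (235 CPM, against 42.9 to 75.3 in its group) and PSD + restraint female 4 (158 CPM, against 52.3 to 61.6). In PSD male 2 these markers stood at 73.9 CPM, against 27.4 and 39.6 in PSD males 1 and 3. The part of these markers in the NR4A values was not tested. Whole glands were sequenced, so more cells expressing a gene and more RNA per cell cannot be told apart.

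All 3 NR4A genes were low in most unrestrained mice and high in every restrained mouse (the plot of levels in each mouse). Values are CPM, a gene's share of the library's counts, after scaling by TMM, a correction for library composition. In female controls, Nr4a1 stood at 22.3, 63.6, 76.6 and 66.3 CPM in mice 1 to 4. In restrained females it stood at 539, 821, 441 and 971 CPM, so that the lowest restrained female lay well above the highest control. Nr4a2 stood at 20.0, 28.8, 22.8 and 38.7 CPM in female controls and at 253, 352, 148 and 417 CPM after restraint. Nr4a3 stood at 1.75, 2.17, 1.54 and 1.91 CPM in female controls and at 34.4, 47.7, 11.4 and 55.6 CPM after restraint. Restrained female 3 was the lowest of its group for each gene, yet the groups did not overlap for any of them. The share of all genes whose groups separate in this way was not counted.

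**Figure D1:**
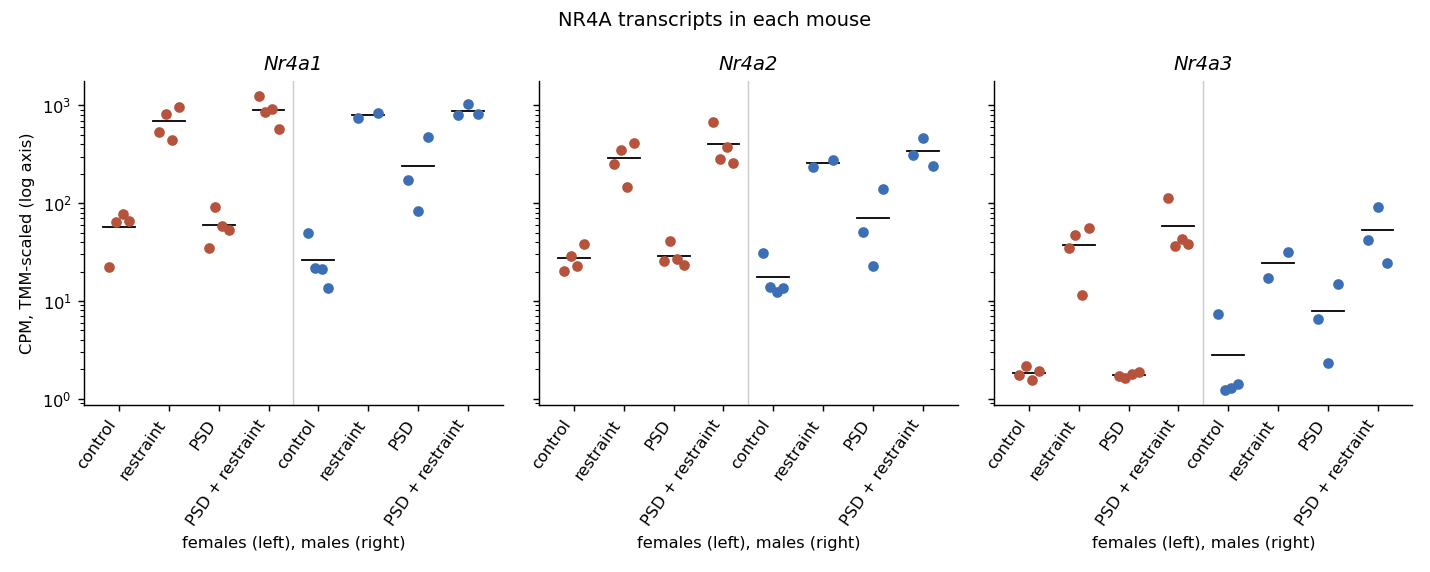
CPM (TMM-scaled, log axis) of Nr4a1, Nr4a2 and Nr4a3, with 1 point per mouse in replicate order and a line at the group mean, females in red and males in blue. Every restrained mouse lies above every control of its sex, PSD females overlap the controls, and PSD male 3 reaches 471 CPM of Nr4a1.

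In females, restraint raised Nr4a1 by 3.61 on the log2 scale (SE 0.40, 12.2-fold), Nr4a2 by 3.42 (SE 0.36, 10.7-fold) and Nr4a3 by 4.36 (SE 0.48, 20.6-fold). Each had an adjusted p of 0.000275 by edgeR (quasi-likelihood, Benjamini-Hochberg over 18059 genes). A gene passed the test when its adjusted p was at most 0.05 and its fold change at least 1.25. All 3 members passed, against 0.482% of the genes tested that were higher in this comparison. By p they ranked 6 (Nr4a1), 3 (Nr4a2) and 7 (Nr4a3) of all genes.

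In males the restraint group held mice 2 and 3. Nr4a1 stood at 49.0, 21.8, 21.1 and 13.6 CPM in control males 1 to 4 and at 744 and 844 CPM in the restrained males. Nr4a2 stood at 30.9, 13.7, 12.4 and 13.6 CPM in control males and at 234 and 278 CPM after restraint. Nr4a3 stood at 7.37, 1.22, 1.28 and 1.42 CPM in control males and at 17.2 and 31.3 CPM after restraint. Control male 1 was the highest control for each gene and, for Nr4a3, lay far above the others.

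Restraint raised Nr4a1 by 4.91 (SE 0.55, adjusted p = 0.00297) and Nr4a2 by 3.84 (SE 0.54, 14.4-fold, adjusted p = 0.00709) on the log2 scale in males. Nr4a3 differed by 3.04 (SE 0.74, 8.21-fold) and did not pass (adjusted p = 0.215). In this comparison 0.29% of 18271 genes were higher. Without control male 1, the Nr4a3 difference was 4.22 with an adjusted p of 0.0286. Without restrained male 3, the adjusted p of Nr4a2 was 0.0704. With edgeR's robust option it was 0.117.

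In all mice together, with sex in the model, restraint raised Nr4a1 by 4.12 (SE 0.47, adjusted p = 3.68e-06), Nr4a2 by 3.64 (SE 0.38, adjusted p = 9.05e-07) and Nr4a3 by 3.93 (SE 0.52, adjusted p = 2.9e-05) on the log2 scale. Of 18936 genes, 0.935% were higher. The female and male restraint effects were compared in a model with a mean for each sex and treatment, in which 0% of genes passed. The female minus male difference was −1.30 for Nr4a1 (95% interval −2.70 to 0.09), −0.43 for Nr4a2 (−1.80 to 0.93) and 1.32 for Nr4a3 (−0.66 to 3.29). No member had an unadjusted p under 0.05 for it, and DESeq2 called none.

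Before treatment, no member passed for a difference between the sexes. Nr4a1 was 1.11 higher on the log2 scale in control females than in control males (95% interval 0.19 to 2.03) and did not pass (adjusted p = 0.0977). Nr4a2 differed by 0.63 (−0.27 to 1.53) and Nr4a3 by −0.70 (−2.15 to 0.74). In this comparison 10.7% of genes passed. Without control male 1, the Nr4a1 difference was 1.60 with an adjusted p of 0.0282, and that of Nr4a3 turned to 0.47. Without control female 1, the lowest female for Nr4a1, it was 1.38 with an adjusted p of 0.0342.

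In females, the NR4A levels of PSD mice overlapped those of the controls, and none passed. Nr4a1 stood at 34.9, 92.3, 58.6 and 53.5 CPM in PSD females, Nr4a2 at 25.6, 40.6, 26.9 and 23.2 CPM, and Nr4a3 at 1.71, 1.64, 1.79 and 1.87 CPM. The PSD and control ranges overlapped for every member. The log2 difference was 0.07 for Nr4a1 (95% interval −0.70 to 0.84, adjusted p = 0.941), 0.08 for Nr4a2 (−0.65 to 0.80, adjusted p = 0.928) and −0.03 for Nr4a3 (−1.26 to 1.19, adjusted p = 0.984). No member had an unadjusted p under 0.05, DESeq2 called none, and 0.0277% of all genes passed.

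In males, the PSD mice were unalike. Nr4a1 stood at 172, 84.1 and 471 CPM in PSD males 1 to 3, each above the highest control male. Nr4a2 stood at 50.7, 22.5 and 139 CPM, and PSD male 2 lay within the control range. Nr4a3 stood at 6.49, 2.32 and 15.0 CPM, and mice 1 and 2 lay below control male 1. PSD male 3 was the highest for each gene and PSD male 2 the lowest.

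The log2 difference between PSD and control males was 3.20 for Nr4a1 (SE 0.50, adjusted p = 0.0736), 1.99 for Nr4a2 (SE 0.49, adjusted p = 0.253) and 1.40 for Nr4a3 (SE 0.72, adjusted p = 0.614), and none passed. Before adjustment, 2 of the 3 members had a p under 0.05. In this comparison 0.00547% of genes passed, and Nr4a1 ranked 3 by p. In DESeq2 the adjusted p of Nr4a1 was 0.000218, with a shrunken log2 fold change of 0.20 that lay under the size limit, and no member was called. Without PSD male 3, the differences were 2.28 for Nr4a1 (adjusted p = 0.312), 1.03 for Nr4a2 (0.819) and 0.51 for Nr4a3 (0.964). Without control male 1, Nr4a1 passed at 3.69 (adjusted p = 0.0239), and Nr4a2 and Nr4a3 did not pass. Without PSD male 2, Nr4a1 passed at 3.61 (adjusted p = 0.037). With both control male 1 and PSD male 3 left out, an alternative chosen after seeing the data, it passed at 2.78 (adjusted p = 0.00703).

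**Figure D2:**
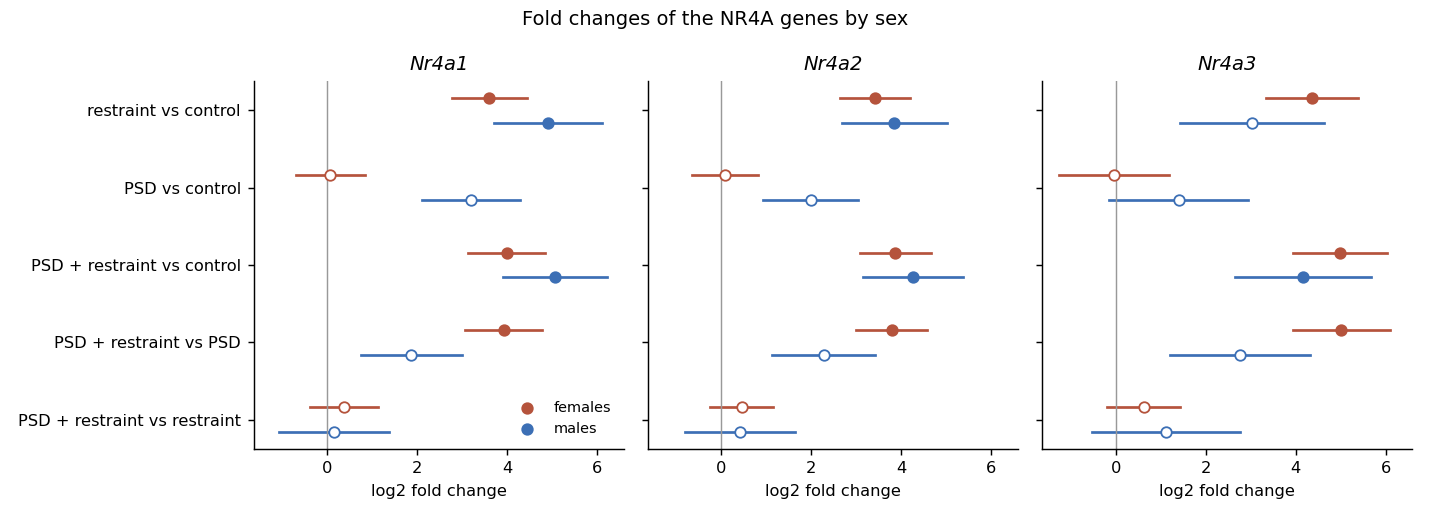
Log2 fold changes of Nr4a1, Nr4a2 and Nr4a3 in 5 comparisons, females in red and males in blue, with 95% intervals from edgeR and filled points where the gene passed the test. The female PSD points sit at 0, and the male PSD points lie at 3.20, 1.99 and 1.40 without passing.

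The female minus male difference of the PSD effect was −3.13 on the log2 scale for Nr4a1 (95% interval −4.47 to −1.79, adjusted p = 0.159), −1.91 for Nr4a2 (−3.22 to −0.60, adjusted p = 0.336) and −1.44 for Nr4a3 (−3.57 to 0.68, adjusted p = 0.639). None passed, as for 0% of all genes, and 2 members had an unadjusted p under 0.05. DESeq2 called Nr4a1 in this comparison, with a difference of −3.14 and an adjusted p of 0.00982. That difference was not shrunken, unlike the DESeq2 value for PSD in males, so the size limit fell on another scale. Without control male 1, Nr4a1 passed at −3.62 (adjusted p = 0.0479). Without PSD male 3 the differences were −2.21 for Nr4a1 (adjusted p = 0.469), −0.96 for Nr4a2 (0.601) and −0.55 for Nr4a3 (0.892). In all mice, PSD gave a log2 difference of 1.64 for Nr4a1 (adjusted p = 0.0732), 1.05 for Nr4a2 (adjusted p = 0.137) and 0.91 for Nr4a3 (adjusted p = 0.375). None passed in all mice, while 0.671% of genes did. Without PSD female 4, Nr4a1 passed in all mice at 1.82 (adjusted p = 0.0413). Without PSD male 3, the differences in all mice were 0.997 for Nr4a1, 0.48 for Nr4a2 and 0.19 for Nr4a3.

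The rest of the immediate early response was set beside the NR4A genes in each unrestrained mouse. In PSD male 3, 23 of 30 other immediate early genes (76.7%) lay above all 4 control males, against 22% of all genes tested. Their median lay 1.07 log2 CPM above the control mean, and Nr4a1 lay 4.32 above it. In PSD male 1 the count was 14 of 30 (46.7%, against 19.5% of all genes) with a median of 0.206, and in PSD male 2 it was 12 of 30 (40%, against 18.7%) with a median of 0.185. In PSD females 1, 3 and 4 the shares were 17.2%, 27.6% and 20.7% of 29, against 25.7%, 26.3% and 21.1% of all genes. PSD female 2, the highest PSD female for Nr4a1 and Nr4a2, had 18 of 29 above all control females (62.1%, against 25.7% of all genes), while its Nr4a3 lay 0.154 below the control mean. In control male 1, where Nr4a3 lay 2.45 above the mean of the other controls, 9 of 30 lay above them, or 30%, against 30.7% of all genes.

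When restraint followed PSD, the NR4A genes were again high in every mouse. Nr4a1 stood at 1255, 853, 929 and 574 CPM in PSD + restraint females and at 799, 1045 and 815 CPM in the males. Nr4a2 stood at 683, 280, 375 and 259 CPM in these females and at 311, 470 and 242 CPM in the males. Nr4a3 stood at 114, 36.1, 42.8 and 38.5 CPM in these females and at 42.3, 91.5 and 24.5 CPM in the males. PSD + restraint female 1, whose library was the smallest, was the highest female for each gene.

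Against controls, PSD + restraint females were higher by 3.99 for Nr4a1, 3.87 for Nr4a2 and 4.98 for Nr4a3 on the log2 scale, with adjusted p values of 8.15e-05, 6.66e-05 and 6.66e-05. In males Nr4a1 differed by 5.07 (adjusted p = 0.000511) and Nr4a2 by 4.26 (adjusted p = 0.00122). Nr4a3 differed by 4.16 in males (adjusted p = 0.00833). All 3 members passed in each sex, against 1.53% of genes that were higher in females and 1.92% in males. In males Nr4a3 was not called by DESeq2 (shrunken log2 fold change 0.31, adjusted p = 6.71e-05), as the fold change lay under the size limit. In all mice they passed at 4.41, 4.05 and 4.61, against 4.1% of genes. The female minus male difference of this effect was −1.08 for Nr4a1 (95% interval −2.40 to 0.23), −0.40 for Nr4a2 (−1.69 to 0.88) and 0.81 for Nr4a3 (−1.05 to 2.66). No gene passed (0%), no member had an unadjusted p under 0.05 and DESeq2 called no member.

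Against PSD alone, PSD + restraint females were higher by 3.92 for Nr4a1 (adjusted p = 7.96e-05), 3.79 for Nr4a2 (adjusted p = 7.03e-05) and 5.02 for Nr4a3 (adjusted p = 7.34e-05). All passed, against 0.814% of genes that were higher. In males Nr4a1 differed by 1.87 (adjusted p = 0.218), Nr4a2 by 2.28 (adjusted p = 0.124) and Nr4a3 by 2.76 (adjusted p = 0.178), and none passed, while 0.257% of genes were higher. All 3 male differences had an unadjusted p under 0.05, and DESeq2 called Nr4a2. Every PSD + restraint male lay above every PSD male for each gene. The share of all genes that separate in this way was not counted, and the members varied together, so this is a description only. Without PSD male 3, Nr4a1 passed at 2.79 (adjusted p = 0.0343) and Nr4a2 at 3.23 (adjusted p = 0.0232). With control male 1 left out as well, Nr4a3 passed too, at 3.67 (adjusted p = 0.0155). In all mice the 3 members passed at 2.77 (Nr4a1), 3.0 (Nr4a2) and 3.7 (Nr4a3), against 1.41% of genes.

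PSD before restraint gave no member a passing difference from restraint alone. In females PSD + restraint differed from restraint by 0.38 for Nr4a1 (95% interval −0.37 to 1.14), 0.45 for Nr4a2 (−0.24 to 1.14) and 0.62 for Nr4a3 (−0.19 to 1.44). In males it differed by 0.16 (−1.06 to 1.38), 0.42 (−0.81 to 1.64) and 1.12 (−0.52 to 2.77). In all mice the differences were 0.29, 0.42 and 0.69. The ranges of both groups overlapped for each gene in females and in males. No member had an unadjusted p under 0.05 in any of these fits and DESeq2 called none. Of all genes, 0.0332% passed in females, 0.00547% in males and 0.0951% in all mice.

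The interaction asks whether the effect of restraint was larger or smaller after PSD. It was 0.31 for Nr4a1, 0.37 for Nr4a2 and 0.66 for Nr4a3 in females. In males it was −3.04 for Nr4a1 (95% interval −4.63 to −1.44), −1.57 for Nr4a2 (−3.16 to 0.02) and −0.28 for Nr4a3 (−2.49 to 1.94). In all mice it was −1.35, −0.64 and −0.22. The adjusted p was 0.963 or more for every member, and 0% of genes passed in females, in males and in all mice. Nr4a1 had an unadjusted p of 0.00122 in males and of 0.0407 in all mice, and the other members and fits had none under 0.05. DESeq2 called none. With control male 1 and PSD male 3 left out, no member passed either. Leaving out 1 male at a time, the male interaction ranged from −3.53 to −2.12 for Nr4a1 and from −2.00 to −0.62 for Nr4a2. For Nr4a3 it ranged from −1.45 to 0.62, where 0.62 came without PSD male 3.

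By mean CPM, the order of groups for Nr4a1 was control male (26.4), control female (57.2), PSD female (59.8), PSD male (242), restraint female (693), restraint male (794), PSD + restraint male (886) and PSD + restraint female (903). Each neighbouring pair in this order had overlapping ranges. For Nr4a2 the means ran from 17.7 in control males through 27.6, 29.1 and 70.6 in control females, PSD females and PSD males to 256 in restraint males. They went on to 292, 341 and 399 in restraint females, PSD + restraint males and PSD + restraint females. Only PSD males and restraint males were neighbours without overlap. For Nr4a3 the same neighbours, at 7.94 and 24.3, were the only ones without overlap. Within groups, Nr4a3 varied least in PSD females, with an SD of 0.10 CPM around 1.75.

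Per kb of exon, which allows the genes to be compared, Nr4a1 was the most abundant member in all 28 mice and Nr4a3 the least. The summed family level ran from 7.47 CPM per kb in control male 4 to 545 in PSD + restraint female 1. Nr4a1 made up between 51.9% (control male 4) and 80.1% (PSD male 2) of it. Nr4a2 made up between 18.6% (PSD male 2) and 44.98% (control male 4). Nr4a3 made up between 0.748% (PSD female 2) and 5.39% (control male 1). Nr4a3 counts were 30 to 2527 per library, so that its control levels rest on few reads.

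**Figure D3:**
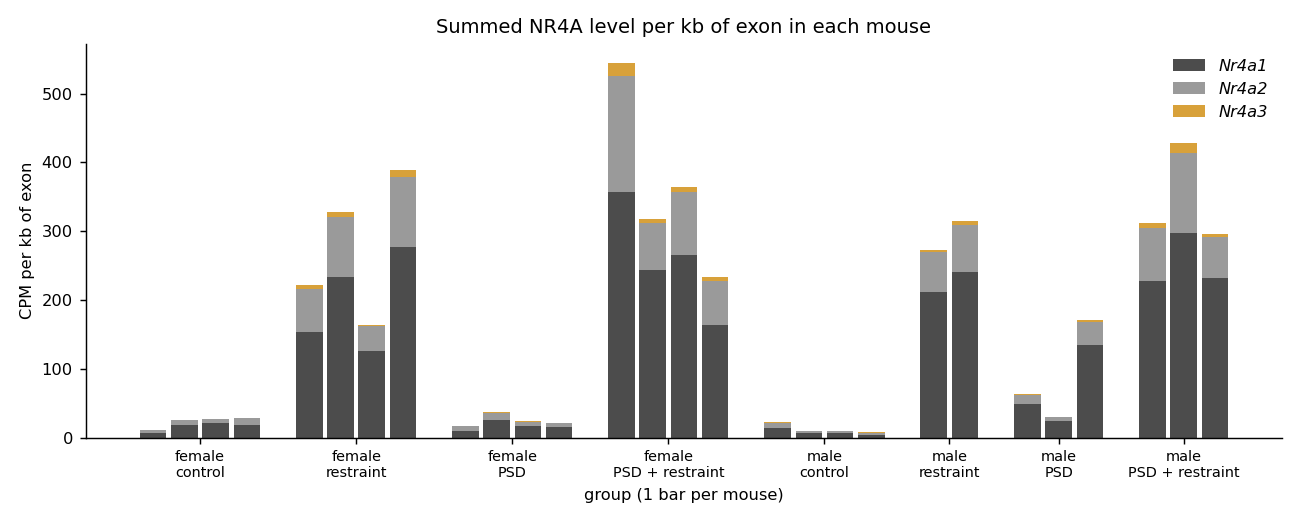
Summed CPM per kb of exon of the NR4A genes with 1 stacked bar per mouse, Nr4a1 in dark grey, Nr4a2 in light grey and Nr4a3 in gold. The bars reach 545 in PSD + restraint female 1 and 171 in PSD male 3, and control bars stay at or below 28.7.

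The members also varied together between mice of the same group. The deviation of each mouse from its group mean of log2 CPM was compared between members over 28 mice, with mice shuffled within groups 100000 times. Nr4a1 and Nr4a2 gave Pearson's r = 0.85 (permutation p = 2e-05, adjusted 6e-05) and Spearman's rho = 0.817 (adjusted 6e-05). Nr4a2 and Nr4a3 gave r = 0.896 (permutation p = 5e-05, adjusted 7.5e-05) and rho = 0.838 (adjusted 0.00012). Nr4a1 and Nr4a3 gave r = 0.705 (permutation p = 0.00026, adjusted 0.00026) and rho = 0.62 (adjusted 0.0014). These are all 3 pairs. Without the 2 mice farthest from the median on the x axis, r was 0.84, 0.874 and 0.729 in the same order. The values of a mouse share its library and its dissection.

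**Figure D4:**
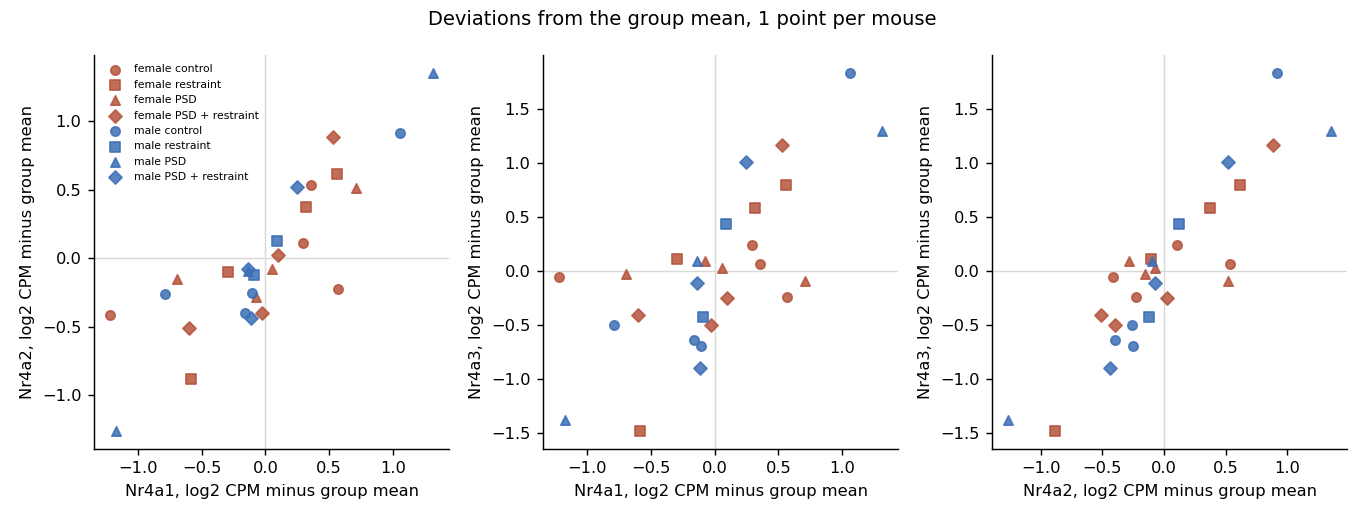
Log2 CPM minus the group mean for each pair of NR4A genes, with 1 point per mouse, red for females and blue for males. The points follow a rising line with r of 0.85 for Nr4a1 and Nr4a2, 0.705 for Nr4a1 and Nr4a3 and 0.896 for Nr4a2 and Nr4a3.

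The genes whose log2 CPM over the 28 mice was most like that of Nr4a1 were Nr4a2 (r = 0.978), Sik1 (0.975), AK006051 (0.957), Gem (0.948) and Slc25a25 (0.945). For Nr4a2 they were Nr4a1 (0.978), Nr4a3 (0.975), Sik1 (0.969), Fosb (0.966) and Atf3 (0.962). For Nr4a3 they were Per1 (0.978), Nr4a2 (0.975), Coq10b (0.972), Slc25a25 (0.971) and Inpp5f (0.958). Sik1 encodes a cAMP-induced kinase that restrains the CRTC coactivators of CREB, and Per1 a clock protein whose gene also responds to cAMP. Within groups, the correlation of deviations was 0.857 between Nr4a1 and Sik1, 0.913 between Nr4a2 and Sik1 and 0.88 between Nr4a3 and Per1. These correlations span the treatments and are given as a description.

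Of the 46 other nuclear receptors, 43 were tested in all mice and none passed for restraint, with 4 at an unadjusted p under 0.05 and none called by DESeq2. None of 39 passed in females (5 with an unadjusted p under 0.05) and none of 41 in males (1 with an unadjusted p under 0.05), and DESeq2 called none in either sex. Over all genes, 216 of 18936 passed in all mice, 98 of 18059 in females and 54 of 18271 in males. At those shares a list of this length would hold few or none. The median log2 difference of the other nuclear receptors in all mice was −0.04, against 0.00 over all genes and 3.93 for the NR4A genes. Pparg, the fat-cell receptor, had the smallest p, with a log2 difference of 1.37 (adjusted p = 0.0714). Its median was 1.55 CPM in restrained females and its highest value 10.6 CPM. The part of that mouse in the Pparg difference was not tested. Nr6a1 followed at −0.23 (adjusted p = 0.184).

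Of the 18 partners and coregulators, which include the RXR genes, none passed for restraint in all mice (1 with an unadjusted p under 0.05). DESeq2 called none. At the share of all genes that passed (216 of 18936), few or none of 18 would. The coactivator genes Ep300 (−0.14, adjusted p = 0.255) and Ncoa2 (−0.10, adjusted p = 0.535) had the smallest p values.

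**Figure D5:**
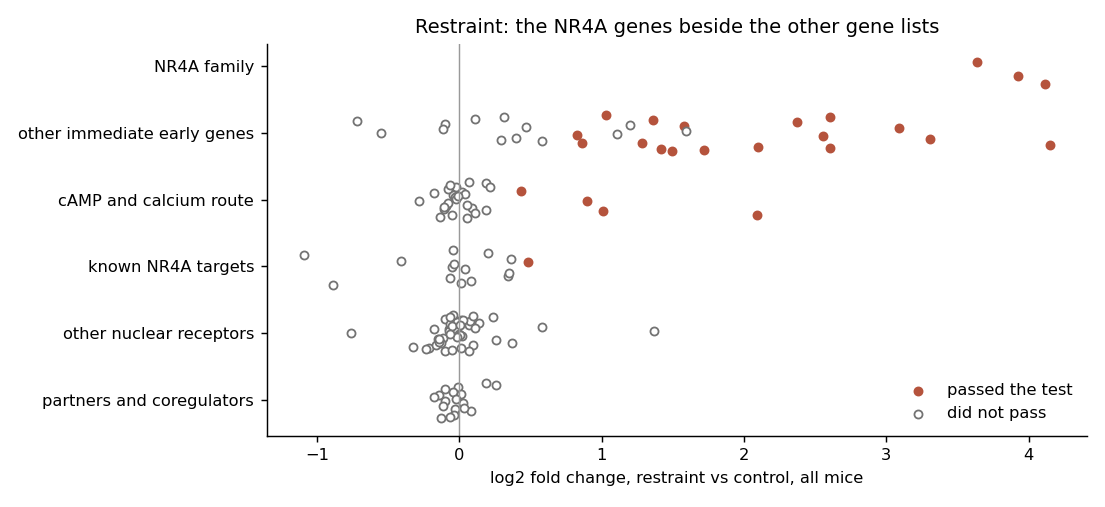
Log2 fold change for restraint against control in all mice, with 1 point per gene in each list and red points where the gene passed the test. The NR4A genes lie at 3.64 to 4.12, 17 of 30 other immediate early genes passed, and the other nuclear receptors gather around 0.

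Other immediate early genes rose with the NR4A genes. For restraint, 17 of 30 passed in all mice, 9 of 29 in females and 11 of 30 in males, all higher, against 0.935%, 0.482% and 0.29% of all genes. With control male 1 and PSD male 3 left out, 18 passed in all mice and 15 in males. Fosb, an AP-1 subunit, rose by 4.15 on the log2 scale, Egr3 by 3.31, Atf3 by 3.09, Egr4 by 2.60 and Gadd45b by 1.72 in all mice. The median of the 30 was 1.24, against 0.00 over all genes. After PSD alone, Gadd45b passed in all mice (0.97, adjusted p = 0.00267), and no other gene of this list did (14 of 30 with an unadjusted p under 0.05, 3 called by DESeq2). In males none of 30 passed for PSD, with 16 at an unadjusted p under 0.05 and 2 called by DESeq2. After PSD + restraint 23 of 30 were higher in all mice, against 4.1% of all genes.

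On the cAMP and calcium route that feeds the NR4A genes, 4 of 29 genes rose with restraint in all mice and none fell, against 0.935% of all genes that were higher. They were Sik1 (2.10), Crem (1.01), which encodes a cAMP-induced repressor, Rgs2 (0.90), an inhibitor of G protein signalling, and the cAMP phosphodiesterase gene Pde4b (0.43). In females 3 passed and in males Sik1 alone, against 0.482% and 0.29% of all genes. Crhr1 differed by −0.08 in all mice (adjusted p = 0.917), and its medians lay between 16.5 and 23.4 CPM over the 8 groups. Sik1 stood at 21.4, 29.9 and 93.8 CPM from the lowest to the highest PSD male, against a highest control male of 23.0 CPM.

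Of 18 genes known as NR4A targets in other tissues or in the pituitary, 15 were tested in all mice and 1 rose with restraint, against 0.935% of all genes. It was Bcl2l11, which encodes the pro-apoptotic protein Bim (0.48, adjusted p = 0.00134), and Fbp2 followed at 0.36 (adjusted p = 0.367). Pomc, the target in corticotropes, differed by 0.35 (SE 0.28, adjusted p = 0.771) after restraint. Its CPM ranged from 36567 to 68145 in female controls and from 39376 to 94470 in restrained females. PSD gave a Pomc difference of 1.03 (adjusted p = 0.0606), and PSD + restraint one of 0.99 (adjusted p = 0.0157), which passed. These Pomc differences include control male 1, whose corticotrope marker sum, nearly all Pomc, was 11514 CPM. It was 49730 to 63673 CPM in the other control males. No Pomc difference without that mouse is given here. After PSD + restraint 4 of 15 targets were higher, against 4.1% of all genes. They were Bcl2l11, Bdnf, Pomc and Spp1, of which Bdnf and Spp1 were named after seeing the values. The list was chosen with earlier results of these data known. In the paper, Bcl2l11 and Bdnf are among the genes changed by PSD + restraint, and Pomc among those changed by PSD in females. The shares are therefore a description and not a test of the list.

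The markers of corticotropes were set beside these values. Their summed level, nearly all Pomc, ran from 36676 to 68297 CPM in female controls (median 44493) and from 39517 to 94654 in restrained females (median 61381), so that the ranges overlapped. In PSD females it ran from 70383 to 164633, above every female control, while their NR4A values overlapped those of the controls. In males it ran from 11514 to 63673 in controls, was 39145 and 68412 after restraint, and was 65979, 80517 and 101783 in PSD males 1 to 3. PSD male 3, the highest of these, was also the highest PSD male for each NR4A gene, and control male 1 had the lowest sum of all mice. Pomc is also expressed by melanotropes, whose summed markers had medians of 1351 CPM in control and 2500 in PSD females, and of 1488 in control and 2006 in PSD males. Crhr1 stayed between 13.7 and 24.4 CPM over all mice. The summed macrophage markers stayed between 78.1 and 116 CPM in all groups. The part of cell type make-up in the NR4A values was not tested.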

How the data were processed

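Whole pituitaries were sequenced as stranded poly(A) libraries. MapSplice was the authors' aligner (genome mm10), HTSeq 0.9.1 gave reads per gene, and the raw counts were deposited. The strand setting of the counting is not given in the sources used here. The deposited normalized counts (a signal, each count divided by the library's DESeq2 1.16.1 size factor) were used only to check the table. No column of samples was left unused (0).

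Counts were fitted with edgeR 4.0.16 (R 4.3.3, limma 3.58.1) by the quasi-likelihood test with TMM scaling and the filterByExpr filter, in females, in males and in all mice with sex as a term. Sexes were compared with a mean per sex and treatment. Adjusted p values are Benjamini-Hochberg over all genes tested. Genes passed at an adjusted p of at most 0.05 and a fold change of at least 1.25. Levels are CPM, log2 CPM used a prior count of 2, and levels per kb used GENCODE exon lengths. Cage and tank mates may share an environment, so p values measure the spread between these mice. No pair of libraries differed by as little as sampling noise. DESeq2 1.42.0, other scalings and filters, a replicate block and leaving out mice were alternatives. DESeq2 fold changes were shrunken for comparisons between groups, but not for interactions or sex differences of an effect. Named genes were the members, at most 5 per list with the smallest p for restraint in all mice among those that passed (otherwise 2), Pomc, Crhr1 and the 5 genes most like each member; others are said to be named after their values were seen. The members and lists were chosen with earlier results of these data known. Results for other nuclear receptors after PSD or PSD + restraint are not reported here.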

Additional observations from a re-analysis of the deposited data

Results flagged for a closer look

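Among the 15 groups of 4 mice tested (5 groups for each NR4A gene), 3 held a mouse far from the other 3. The genes were measured in the same mice and varied together, so these are not 15 separate trials. No chance rate is given for them. Nr4a2 stood at 30.93 CPM in control male 1, and its gap to the nearest mouse was 0.927 of the group's range. Nr4a3 stood at 7.366 CPM in the same mouse, with a gap of 0.969 of the range. Nr4a3 stood at 114.2 CPM in PSD + restraint female 1, with a gap of 0.914 of the range. Control male 1 also had the lowest summed pituicyte markers of the control males (5.349 CPM), and PSD + restraint female 1 had the smallest library (14024465 counts). The part of either in these values was not tested.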

How the results depend on the processing

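Restraint, PSD + restraint against control and PSD + restraint against PSD in females and in all mice gave 18 results for Nr4a1, Nr4a2 and Nr4a3. These kept direction and side of the threshold in all 576 combinations of a result and an alternative setting. The replicate numbers did not pair mice (same-number deviations correlated above 0.1 in 2 of 24 female and 2 of 15 male pairs). With the replicate block, the male restraint differences were 4.76 for Nr4a1 (adjusted p = 0.0865) and 3.8 for Nr4a2 (0.183), and that of Nr4a3 for male PSD + restraint was 4.16 (0.0725), all past the threshold only without it, and the genes that passed fell from 54 to 4, from 467 to 147 and, for PSD + restraint against PSD, from 52 to 6 in males. The robust option gave 3.84 (0.117) for Nr4a2 under male restraint, and no filter gave 3.20 (0.0185) for Nr4a1 under male PSD. DESeq2 gave shrunken values of 0.31 for Nr4a3 under male PSD + restraint, just under the size limit, and 0.35 for Nr4a2 against PSD in males. Its −3.14 for Nr4a1 between the sexes' PSD effects was not shrunken. With control male 1 and PSD male 3 left out together, chosen after seeing the data, male differences were 4.22 for Nr4a3 under restraint and 2.78 for Nr4a1 under PSD, and against PSD 2.79, 3.23 and 3.67. Between the sexes, controls then differed by 1.60 (Nr4a1) and 0.47 (Nr4a3), and the PSD + restraint effect by −0.36 (Nr4a3).

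Leaving out 1 mouse at a time changed 24 of 1344 results. PSD in females ranged from −0.22 to 0.25 (Nr4a1), −0.12 to 0.29 (Nr4a2) and −0.12 to 0.035 (Nr4a3), and in all mice from 0.997 to 1.86 (Nr4a1). In males restraint ranged from 3.72 to 4.27 (Nr4a2) and 2.55 to 4.22 (Nr4a3), PSD from 2.28 to 3.69 (Nr4a1), and PSD + restraint against PSD from 1.46 to 2.79 (Nr4a1) and 1.85 to 3.23 (Nr4a2). The interaction ranged from −0.020 to 0.60 (Nr4a2, females), −1.45 to 0.62 (Nr4a3, males) and −0.77 to 0.53 (Nr4a3, all mice). Between the sexes, controls ranged from 0.89 to 1.60 (Nr4a1) and −0.95 to 0.47 (Nr4a3), the PSD effect from −3.62 to −2.21 (Nr4a1) and the PSD + restraint effect from −0.36 to 1.47 (Nr4a3). The causes were not tested. Nr4a3 in controls rests on few counts, and male restraint on 2 mice. Genes that passed, of all tested, numbered 98 for restraint in females (45 to 178 without 1 mouse, 54 to 190 in other settings), 54 in males (19 to 63 and 4 to 99) and 216 in all mice (165 to 271 and 177 to 287). For PSD they numbered 5 (0 to 557 and 0 to 405), 1 (0 to 7 and 0 to 76) and 127 (31 to 227 and 40 to 244), and for PSD + restraint 398 (158 to 613 and 302 to 633), 467 (162 to 528 and 147 to 617) and 1033 (772 to 1190 and 790 to 2064).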
